A study of Mus musculus with 4 samples.

Results

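The genes described here form the gate through which a resting T cell enters the division cycle: the D cyclins Ccnd2 and Ccnd3, their kinases Cdk4 and Cdk6, the CDK inhibitors Cdkn1a, Cdkn1b and Cdkn2c, and the pocket proteins Rb1 and Rbl2. They were taken by symbol, and each symbol matched 1 row, giving 9 of the 49671 genes in the deposited tables. The RNA came from T cells (CD3+) of the spleens of 4 female F1 mice, whose mothers were C57BL/6 and heterozygous for an Xist deletion and whose fathers were Mus musculus castaneus (Castaneus). Over 48 hours the cells received anti-CD3 coated on the plate (1 µg/ml), anti-CD28 in solution (10 µg/ml) and 2.5 µM IMD-0354, which inhibits IKKβ, a kinase that releases NF-κB transcription factors. All 4 samples, labelled as biological replicates, form 1 group, so neither stimulation nor inhibition was compared with anything, and the values describe this condition alone. The labels do not say which daughters carried the Xist deletion, which concerns the X chromosome, while all 9 genes are autosomal.

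In a resting lymphocyte, pocket proteins sit on E2F transcription factors and keep the genes for DNA replication off. Signals from the T cell receptor and CD28 raise D cyclins, which bind CDK4 or CDK6 and phosphorylate the pocket proteins so that E2F is set free. Inhibitors of the CIP/KIP family (Cdkn1a, Cdkn1b) bind complexes of cyclin and CDK, and those of the INK4 family (Cdkn2c) bind CDK4 and CDK6 themselves. Cdkn1b is known as the brake of resting T cells, and Ccnd2 as the D cyclin that lymphocytes induce upon activation.

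Levels are RPKM values of both alleles together, that is reads scaled to exon length and to the depth of the library. The length counts every annotated exon of a gene, with 9409 bases for Ccnd2, 8775 for Ccnd3, 3249 for Cdk4 and 13989 for Cdk6. Which transcripts the cells used was not measured, and a gene whose transcripts leave exons out has a lower RPKM than by transcript length. Orders and ratios between genes hold on this scale only. Replicates correlated with r of 0.940 to 0.974 on the log2(RPKM + 0.1) scale across the 11453 genes whose mean reached 1 RPKM. Allelic reads, those that could be assigned to the C57BL/6 or the Castaneus copy of a gene, numbered 30539711 to 34992012 per replicate. T cell markers were at 8.79 to 65.5 RPKM for all 10 genes of the list, with Cd3e at 42.4 ± 2.30 (SD, n = 4). Markers of other cells were present as well: their summed level in replicates 1 to 4 was 10.5, 6.92, 4.61 and 5.16 RPKM for 5 B cell genes, and 61.3, 99.4, 46.0 and 37.1 RPKM for 6 myeloid genes, of which Lyz2 and Cd68 made up most. The sums were 3.91, 4.38, 4.55 and 3.51 RPKM for 3 NK cell genes and 3.40, 4.88, 0.823 and 4.51 RPKM for 3 erythroid genes. Nearly all of the NK cell sum was Eomes, with a mean of 3.93 RPKM. The other NK cell genes, Ncr1 and Klrb1c, had means of 0.0895 and 0.0633 RPKM. In bulk RNA, fewer cells of a type and less RNA per cell cannot be told apart.

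The 9 genes spanned the range from Ccnd2 at 53.9 ± 10.5 RPKM, above 95.5% of the 11453 genes, to Cdkn2c at 1.36 ± 0.410 RPKM, above 6.70% of them (SD, n = 4). Their median was 14.02 RPKM, against 6.72 RPKM over the 11453 genes. The order was Ccnd2, Cdkn1b, Cdkn1a, Cdk4, Cdk6, Rb1, Rbl2, Ccnd3 and Cdkn2c, and it was the same under both rescalings of the libraries, by geometric means and without any 1 replicate. The ranges over replicates were separate between Cdkn1a and Cdk4, between Cdk4 and Cdk6, and between Ccnd3 and Cdkn2c. The other neighbours in the order had overlapping ranges, and Rb1 exceeded Rbl2 in 3 of 4 replicates only, so their order was not resolved. The plot of levels shows 3 tiers, with Ccnd2 and the CIP/KIP inhibitors at the top, the kinases, pocket proteins and Ccnd3 in the middle, and Cdkn2c apart at the bottom.

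**Figure D1:**
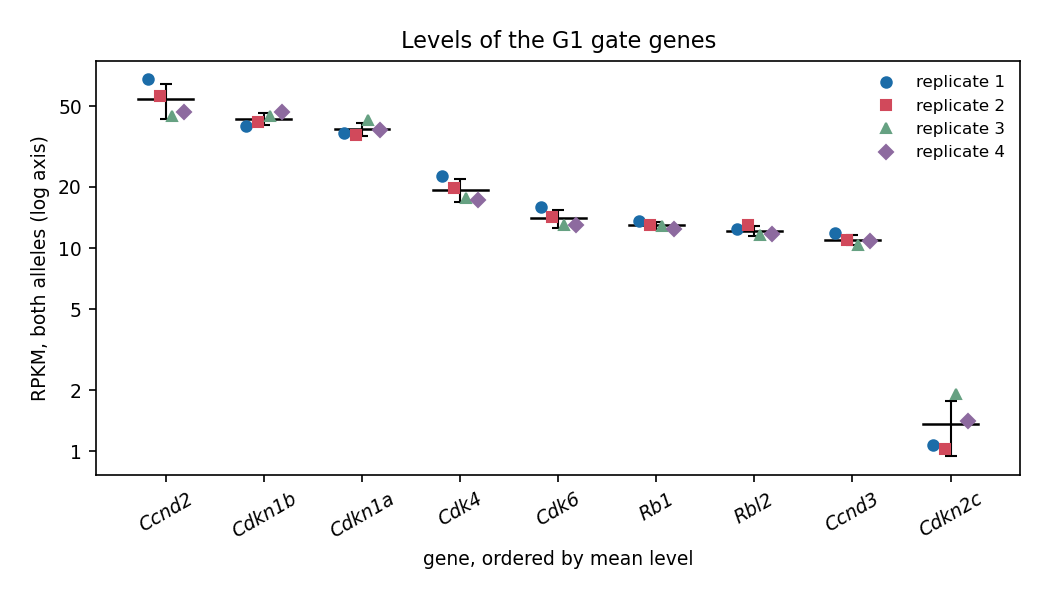
RPKM of both alleles (log axis) for each of the 9 genes, ordered by mean level. Symbols are the 4 replicates, horizontal lines the means and bars the SD; Ccnd2 is the highest gene in the mean at 53.9 RPKM and Cdkn2c the lowest at 1.36 RPKM.

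Ccnd2 was the highest D cyclin by RPKM. Ccnd2 (ENSMUSG00000000184, chromosome 6, 127125162 to 127152193, minus strand, mm10) was at 67.7, 56.3, 44.5 and 46.9 RPKM in replicates 1 to 4. Replicates 1 and 2 were the high ones, and the coefficient of variation was 19.5%, or 12.6% without replicate 1, beside a median of 11.4% over the 11453 genes with all replicates. Ccnd3 (ENSMUSG00000034165, chromosome 17, 47505051 to 47599691, plus strand), which is expressed in most lymphoid cells, was at 11.8, 10.99, 10.3 and 10.8 RPKM. The ratio of Ccnd3 to Ccnd2 was 0.208 ± 0.0278 and below 1 in 4 of 4 replicates (exact two-sided sign-flip permutation test, p = 0.125, adjusted p = 0.188 over 6 ratios). Ccnd1, the D cyclin of many epithelial and connective tissue cells, was at 0 to 0.108 RPKM. The summed B cell markers were highest in replicate 1 and lowest in replicate 3, as was Ccnd2, and their part in the spread of Ccnd2 was not tested. With 4 replicates 0.125 is the smallest p this test can give, so none of the 6 ratios could pass, and each is reported by its direction in each replicate.

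Both kinases of the gate were present, with Cdk4 above Cdk6 by RPKM. Cdk4 (ENSMUSG00000006728, chromosome 10, 127063534 to 127067920, plus strand) was at 22.7, 19.8, 17.7 and 17.3 RPKM. Cdk6 (ENSMUSG00000040274, chromosome 5, 3341485 to 3531008, plus strand) was at 15.99, 14.2, 12.9 and 12.997 RPKM. The 2 genes were high in replicates 1 and 2 and low in replicates 3 and 4, and their ranges did not overlap. The summed B cell and myeloid markers given above were likewise higher in replicates 1 and 2 than in replicates 3 and 4, and their part in the levels of Cdk4 and Cdk6 was not tested. The ratio of Cdk4 to Cdk6 varied little, with 1.42, 1.40, 1.37 and 1.33 in replicates 1 to 4 and a mean of 1.38 ± 0.0378 (exact two-sided sign-flip permutation test, adjusted p = 0.188). Replicate 1 held the highest value for 5 of the 9 genes, namely Ccnd2, Ccnd3, Cdk4, Cdk6 and Rb1, whereas it was the highest for 19.7% of the 11453 genes.

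The 250 bases upstream of the start of Cdk4 are shown because they carry a cluster of E-boxes, the letters CACGTG that MYC and related factors recognise. Those of Cdkn1b, the highest inhibitor, are shown for comparison. The sequences are RefSeq's, from GRCm38.p6, on the plus strand, at chr10:127063285-127063534 for Cdk4 and chr6:134920151-134920400 for Cdkn1b. Capitals mark E-boxes in Cdk4 and CCAAT in Cdkn1b, both found on either strand.
Cdk4: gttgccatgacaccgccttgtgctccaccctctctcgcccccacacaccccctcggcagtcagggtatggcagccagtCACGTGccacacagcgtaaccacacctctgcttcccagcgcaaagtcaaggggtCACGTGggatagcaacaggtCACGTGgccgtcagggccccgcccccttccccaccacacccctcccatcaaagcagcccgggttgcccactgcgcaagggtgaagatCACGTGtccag
Cdkn1b: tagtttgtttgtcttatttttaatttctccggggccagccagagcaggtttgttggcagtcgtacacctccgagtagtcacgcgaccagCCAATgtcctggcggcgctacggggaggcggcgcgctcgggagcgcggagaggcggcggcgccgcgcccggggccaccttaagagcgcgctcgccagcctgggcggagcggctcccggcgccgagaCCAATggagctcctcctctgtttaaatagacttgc

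Cdk4 had 4 E-boxes in this window, and 6.02% of 32851 such windows of all genes had any. At least as many were held by 7 windows, or 0.0213%, that of Cdk4 among them. The window of Cdk4 was picked for this cluster after the search, so its rarity is a description only. Of the 9 genes, 7 have a window in the table (Ccnd2 and Rb1 do not). Ccnd3, Cdkn1a and Cdkn2c have 2 windows each, of which only that nearest the GENCODE start was searched. Cdk6 had 1 E-box, and Cdkn2c had 1 match to the E2F letters TTCCCGC, which 3.82% of all windows hold. The window of Cdkn2c lies within a GENCODE exon and is not printed. That of Cdk6 belongs to a start 2408 bases from the GENCODE start of the gene and holds 57 exon bases. Cdkn1b had 2 CCAAT matches, where 33.8% of all windows have any. A GC box (GGGCGG, held by 32.7%) was found in 4 of the 7 windows, those of Cdk4, Cdkn1b, Ccnd3 and Cdkn2c. The median GC content was 64.4% in the 7 windows and 52.4% in all windows. The shares over all windows were not matched for GC content, so enrichment of a motif was not tested. Cdk4 and Cdkn1b had 1 each. The κB consensus, held by 3.90% of all windows, had 0 matches in the 7 windows. Each motif was searched on both strands, and a match is a match of letters, with no measurement of binding. Myc, whose product binds E-boxes, was at 48.2, 40.9, 41.0 and 42.6 RPKM in replicates 1 to 4.

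The CIP/KIP inhibitors were nearly as high as Ccnd2. Cdkn1b (ENSMUSG00000003031, chromosome 6, 134920401 to 134925513, plus strand) was at 39.8, 41.9, 44.5 and 46.7 RPKM. Cdkn1a (ENSMUSG00000023067, chromosome 17, 29090976 to 29100727, plus strand), a target of p53 that is also induced by T cell stimulation, was at 36.8, 36.1, 42.8 and 38.1 RPKM. Cdkn1b exceeded Cdkn1a in 4 of 4 replicates, by a ratio of 1.13 ± 0.0833, although their ranges overlapped (exact two-sided sign-flip permutation test, adjusted p = 0.188). Trp53, which encodes p53, was at 36.2 ± 2.59 RPKM (SD, n = 4).

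Cdkn2c (ENSMUSG00000028551, chromosome 4, 109660876 to 109667189, minus strand) was at 1.07, 1.02, 1.91 and 1.41 RPKM. Replicates 3 and 4 were higher than replicates 1 and 2, and its coefficient of variation was 30.2%, the highest of the 9 genes. This rested on replicate 3, without which it was 18.19%, below the 18.23% of Ccnd2. Cdkn1b exceeded it 33.6 ± 7.59 times in the mean of 4 replicates. These levels rest on 330, 262, 572 and 394 reads, recovered from the steps of the RPKM values. The 3 genes of at least 1 RPKM with the most similar deviations over the 4 replicates, by Euclidean distance on the log2 scale, were Gm614 at 0.05, Gm7285 at 0.06 and Gm6712 at 0.08. With 4 replicates such likeness among 11453 genes is a description only.

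The summed levels of the inhibitors and of the D cyclins were set against each other in each animal. The summed RPKM of Cdkn1a, Cdkn1b and Cdkn2c was 77.6, 79.0, 89.2 and 86.2 in replicates 1 to 4, and that of Ccnd2 and Ccnd3 was 79.5, 67.3, 54.8 and 57.8. The ratio of inhibitors to D cyclins was 0.976, 1.17, 1.63 and 1.49. It was below 1 in replicate 1 and above it in the other 3, with a mean of 1.32 ± 0.297 (exact two-sided sign-flip permutation test, p = 0.25, adjusted p = 0.25). With 4 replicates no ratio could pass this test, so only the direction in each replicate is read. The ratio ran opposite to the summed B cell markers, which were 10.5, 6.92, 4.61 and 5.16 RPKM, and the myeloid markers were also higher in replicates 1 and 2; their part in the ratio was not tested. The members of either sum were not equal in weight, since Ccnd2 made up most of the D cyclins and Cdkn2c little of the inhibitors.

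The pocket proteins Rb1 and Rbl2 were at similar levels. Rb1 (ENSMUSG00000022105, chromosome 14, 73183673 to 73325822, minus strand), the retinoblastoma protein gene, was at 13.6, 12.9, 12.8 and 12.4 RPKM, with a coefficient of variation of 3.95%. Rbl2 (ENSMUSG00000031666, chromosome 8, 91070057 to 91123844, plus strand), whose product holds E2F4 and the DREAM repressor on cell cycle genes in resting cells, was at 12.4, 13.006, 11.6 and 11.7 RPKM, with 5.41%. The ratio of Rbl2 to Rb1 was 0.942 ± 0.0455, below 1 in 3 of 4 replicates (exact two-sided sign-flip permutation test, p = 0.25, adjusted p = 0.25). The other family member, Rbl1, was at a similar level of 12.5 ± 1.32 RPKM (SD, n = 4).

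The 5 lists of related genes were measured beside the gate. Among 10 further cyclins and their partners, 5 reached 1 RPKM, and the highest were Cdk2, the kinase of the next step, at 8.23 ± 0.506 RPKM and Ccnh, part of the kinase that activates CDKs, at 6.02 ± 0.720 RPKM. Of 5 further CDK inhibitors 2 reached 1 RPKM, Cdkn2d, another INK4 inhibitor, at 9.46 ± 1.29 and Cdkn2b at 1.87 ± 0.321 RPKM. Cdkn2d was thus the higher INK4 gene, above Cdkn2c in 4 of 4 replicates. Of 17 genes of pocket protein partners, E2F and DREAM 12 reached 1 RPKM, led by E2f4, the E2F of resting cells, at 30.2 ± 0.914 RPKM and the histone-binding Rbbp4 at 14.7 ± 0.983 RPKM. Of 15 genes of turnover and activation 13 did, led by Ddb1, a ubiquitin ligase adaptor, at 66.2 ± 4.95 RPKM and Myc at 43.2 ± 3.44 RPKM (SD, n = 4).

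Of 18 E2F targets and proliferation genes, 11 reached 1 RPKM. Pcna, the replication clamp, was at 23.9 ± 1.08 RPKM and Mcm7, a subunit of the replicative helicase, at 15.5 ± 0.489 RPKM. Among all 65 genes of the 5 lists 6 were under 0.1 RPKM, among them Ccnd1, Ccna1, Ccna2, E2f7 and E2f8. Mki67, a marker of dividing cells that was named after its values were seen, was at 0.591, 0.709, 0.395 and 0.448 RPKM, and Cdk1, chosen likewise, at 0.316 ± 0.0990 RPKM (SD, n = 4). The plot of the lists shows these levels beside those of the 9 genes. No unstimulated or uninhibited cells were among the 4 samples, so whether any of these levels is high or low for T cells at this time was not tested.

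**Figure D2:**
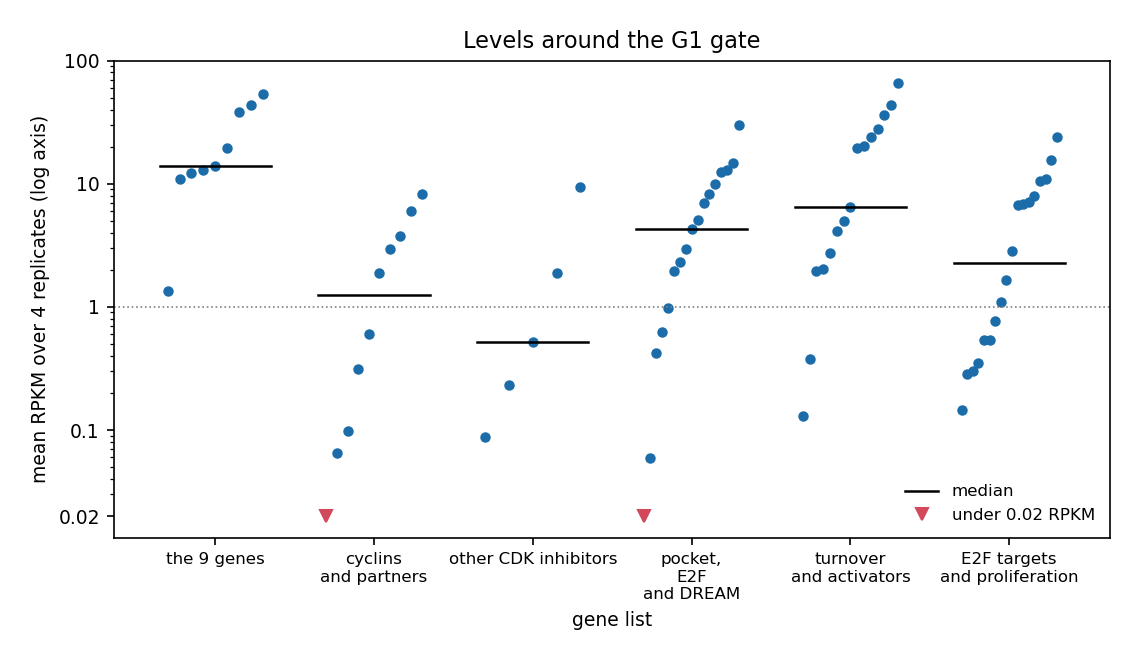
Mean RPKM over 4 replicates (log axis) of the 9 genes and of the genes of 5 related lists, sorted by level within each list; black lines are medians, the dotted line is 1 RPKM and triangles are genes under 0.02 RPKM. The median of the 9 genes is 14.02 RPKM and that of the E2F targets and proliferation genes 2.26 RPKM, with 7 of those 18 below the dotted line.

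The 2 alleles of each gene were read in the same animal. The ratio of Castaneus to C57BL/6 reads was fitted for 10268 autosomal genes with edgeR's quasi-likelihood test, with the animal as a block, and a gene was called at a Benjamini-Hochberg adjusted p under 0.05. Of these genes 28.1% were called in either direction, 12.4% with Castaneus higher and 15.6% with C57BL/6 higher. All 9 genes were tested and 4 were called, 1 with Castaneus higher (Cdkn1a) and 3 with C57BL/6 higher (Cdk6, Ccnd2 and Rbl2). The median log2 ratio was -0.04 over the 10268 genes. The excess of C57BL/6 calls depended on how the libraries were scaled. With edgeR's TMM scaling factors, 1481 genes were higher from Castaneus and 1352 from C57BL/6. DESeq2 gave 1930 and 1883, and every other alternative kept more calls for C57BL/6. Of the 9 genes, the TMM fit called Cdkn1a and Rb1 with Castaneus higher and Cdk6 with C57BL/6 higher. DESeq2 called 2 with Castaneus higher and 3 with C57BL/6 higher. Strain, parent of origin and any bias in placing reads cannot be told apart here, since every C57BL/6 copy came from the mother and every Castaneus copy from the father. Allelic reads ran from 44 for Cdkn2c to 18309 for Cdk6 per replicate, and exact Clopper-Pearson 95% intervals of a share were 1.45 to 4.19 percentage points wide for 8 of the genes. Of the 9 genes all but Cdkn1b and Cdkn2c share exon bases with another annotated gene, whose reads could not be told apart where the strand setting is unknown. The intervals cover counting error only, and reads that are copies of 1 molecule make the true error larger.

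Cdkn1a was the most unequal of the genes called, with more reads from Castaneus. Its Castaneus share was 57.3%, 57.9%, 56.5% and 56.6% in replicates 1 to 4, all above 50%, and its SD of 0.641 percentage points was below the median of 2.19 in 2082 genes of like read number. The log2 ratio was 0.43 with a standard error of 0.06 (edgeR's quasi-likelihood test, adjusted p = 0.000233). The attributed levels were 16.5 ± 1.503 RPKM from C57BL/6 and 21.9 ± 1.54 RPKM from Castaneus (SD, n = 4). The 159 tested genes within 5 Mb gave 44.6% ± 0.390 from Castaneus when pooled. Cdkn1a exceeded this by 12.5 ± 0.986 percentage points, and the pooled neighbours within 2 Mb by 7.29 percentage points. A pooled share follows its most read genes, and the median share of the single genes within 5 Mb was higher, at 48.8%. Cdkn1a was called under all 15 alternatives (adjusted p of 4.79e-21 to 0.00405).

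Cdk6 leaned the other way in every animal. Its Castaneus share was 46.0%, 42.6%, 44.5% and 42.7%, on 13546 to 18309 allelic reads, which are 71.5% to 73.6% of all its reads. The log2 ratio was -0.33 with a standard error of 0.05 (edgeR's quasi-likelihood test, adjusted p = 0.00047). Its 19 neighbours within 5 Mb gave 49.8% ± 0.815 when pooled, with a median gene at 50.4%. The pooled share lay above Cdk6 in each of the 4 replicates. The mean difference, Cdk6 minus neighbours, was -5.90 ± 1.34 percentage points. Among the 15 alternatives 14 called it (adjusted p of 2.67e-09 to 0.0679), the exception being the fit without the replicate block.

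Cdk4 had a Castaneus share of 41.1%, 41.9%, 53.1% and 41.5% in replicates 1 to 4. Replicate 3 stood apart on 2526 allelic reads, with an exact 95% interval of 51.2% to 55.1%, against intervals of 39.5% to 43.8% spanned by the other 3. These intervals count copies of 1 molecule as separate reads. On reads divided by the estimated reads per molecule, the interval of replicate 3 was 46.1% to 60.3% and overlapped those of the other 3. Split by allele, the C57BL/6 part of the level was 13.4, 11.5, 8.28 and 10.1 RPKM and the Castaneus part 9.33, 8.29, 9.38 and 7.18 RPKM. In replicate 3 the C57BL/6 part was at its lowest, while the Castaneus part was close to that of replicate 1 and the total was within the range of the others. The 64 neighbours within 5 Mb showed no such step, with 45.8%, 46.0%, 45.8% and 45.6%. Tspan31, which runs against Cdk4 and shares 641 exon bases (19.7% of those of Cdk4), had 37.3%, 44.7%, 30.5% and 37.5%, so its own share was lowest in replicate 3. Over all replicates Cdk4 was not called (log2 ratio -0.30, standard error 0.12, edgeR adjusted p = 0.0898), and without replicate 3 it was (log2 ratio -0.47, edgeR adjusted p = 0.00838, with 0.00838 to 0.643 over 15 alternatives).

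**Figure D3:**
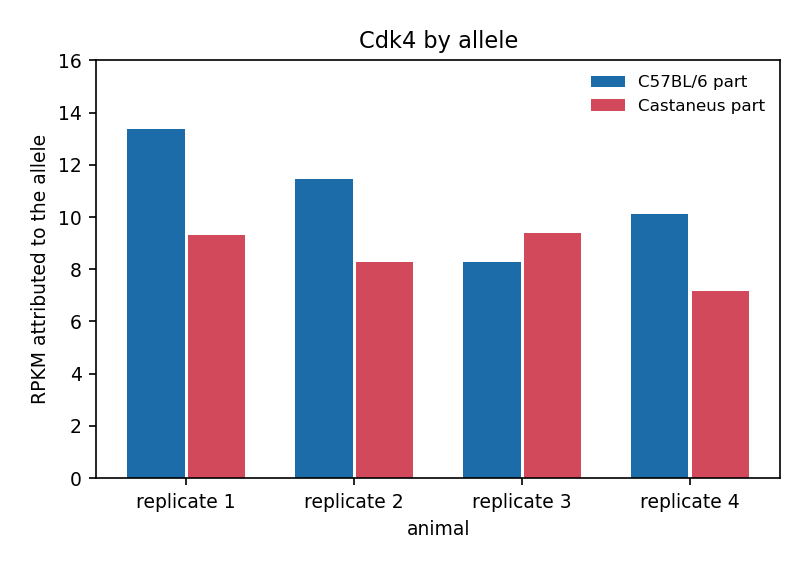
RPKM of Cdk4 attributed to each allele (total RPKM times the allele's share of allelic reads) in each of the 4 animals. The C57BL/6 bar is the taller in replicates 1, 2 and 4, and in replicate 3 it is 8.28 RPKM against 9.38 RPKM for Castaneus.

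The D cyclins differed little between alleles. Ccnd2 had 47.3%, 48.0%, 43.7% and 46.5% of its reads from Castaneus, below 50% in 4 of 4 replicates, with a log2 ratio of -0.19 and a standard error of 0.06 (edgeR's quasi-likelihood test, adjusted p = 0.0288). Its 61 neighbours within 5 Mb gave 47.5% ± 0.372 when pooled, with a median gene at 49.3%. Measured against the pooled reads, the log2 ratio of Ccnd2 was -0.07 (edgeR adjusted p = 0.416). Against neighbours within 2 Mb the difference turned, from -1.14 to 2.74 percentage points. Leaving out replicate 1, 3 or 4 also ended the call of Ccnd2, with edgeR adjusted p-values of 0.0760, 0.152 and 0.0876 (range of all 15 alternatives 0.00871 to 0.462). Ccnd3 had 50.02%, 48.4%, 54.0% and 55.5% and was not called (log2 ratio 0.14, standard error 0.10, adjusted p = 0.352), with replicates 3 and 4 higher than the other 2.

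Cdkn1b was close to equal, and the few reads of Cdkn2c left its share open to wide error. Cdkn1b had 50.7%, 46.0%, 53.0% and 53.0% of its reads from Castaneus (log2 ratio 0.06, standard error 0.08, edgeR adjusted p = 0.597). Cdkn2c had 43.2%, 54.5%, 77.9% and 63.8% on 74, 44, 136 and 80 allelic reads (log2 ratio 0.65, standard error 0.71, edgeR adjusted p = 0.552). In replicate 2, where the other genes' reads come in the largest groups of copies, its exact 95% interval ran from 38.8% to 69.6% by counting alone. On reads divided by the estimated reads per molecule, about 2 were left there, with an interval of 1.26% to 98.7%. A difference between the alleles of Cdkn2c was not detectable at this depth.

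Rb1 and Rbl2 leaned in opposite directions. Rb1 had 51.4%, 54.1%, 53.6% and 51.8% of its reads from Castaneus, above 50% in 4 of 4 replicates, and was not called (log2 ratio 0.18, standard error 0.07, edgeR adjusted p = 0.0744). The 37 genes within 5 Mb gave 47.2% ± 0.580 when pooled, below Rb1 in 4 of 4 replicates, with a median gene at 49.1%. Against the pooled reads the log2 ratio of Rb1 was 0.32 (edgeR adjusted p = 0.00426). Rbl2 had 44.3%, 48.3%, 45.5% and 46.9%, with a log2 ratio of -0.19 and a standard error of 0.06 (edgeR adjusted p = 0.0361). Its 50 neighbours gave 47.2% ± 0.369 when pooled, with a median gene at 47.0%. Against the pooled reads the log2 ratio of Rbl2 was -0.05 (edgeR adjusted p = 0.588). Leaving out replicate 1, 3 or 4 ended the call of Rbl2, with edgeR adjusted p-values of 0.160, 0.133 and 0.0940 (range of all 15 alternatives 0.0104 to 0.588). The edgeR and DESeq2 adjusted p-values of Rb1 ran from 0.00115 to 0.278.

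**Figure D4:**
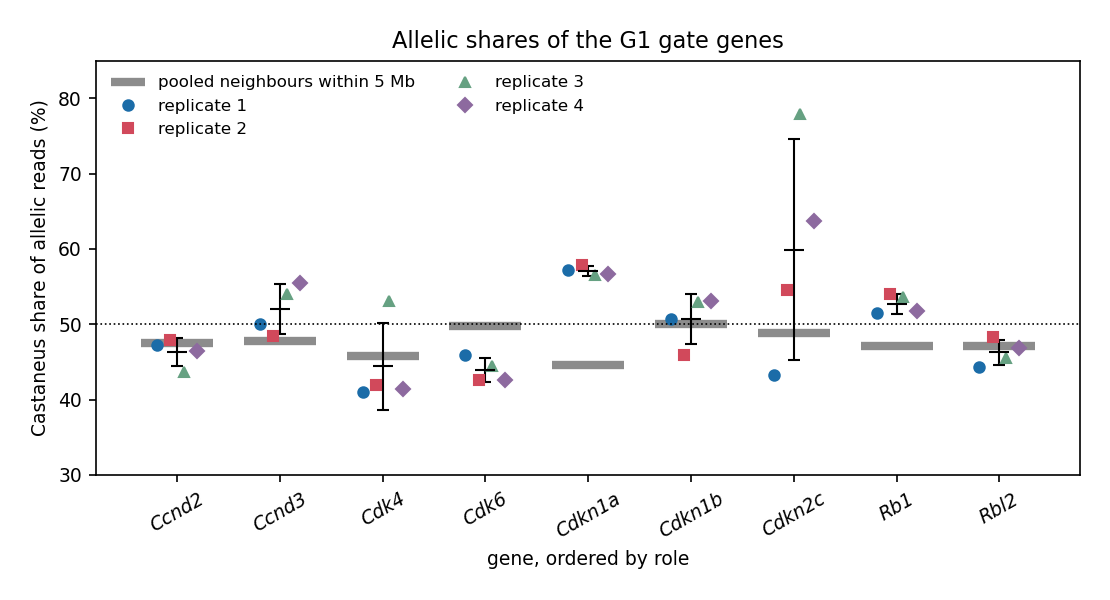
Castaneus share of allelic reads in percent for each gene, with the 4 replicates as symbols, the mean and SD as bars, and the pooled share of tested neighbours within 5 Mb as a grey bar; the dotted line is 50%. All replicates of Cdkn1a lie between 56.5% and 57.9%, those of Cdk6 between 42.6% and 46.0%, and replicate 3 of Cdk4 lies at 53.1%, apart from the others.

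The direction for Rb1 depended on what its reads were compared with, through a gene that is not part of the gate. Rpph1, the RNA of ribonuclease P, held 38.3% of the allelic reads of chromosome 14, and 72.6%, 72.6%, 71.7% and 74.7% of its reads were from Castaneus. The chromosome as a whole gave 58.1% ± 1.17 from Castaneus without Rb1, and 49.1% ± 0.299 when Rpph1 was left out too. Against the chromosome total the log2 ratio of Rb1 was -0.32 (edgeR adjusted p = 0.00809), and without Rpph1 in that total it was 0.21 (edgeR adjusted p = 0.0398). Leaving Rpph1 out of the autosomal total gave 0.21 as well (edgeR adjusted p = 0.0424). Both totals without Rpph1 were chosen after seeing the data. With Rpph1 left out of the autosomal total, 27.5% of all genes tested were called. In that fit 3 of the 9 genes were called, namely Cdk6, Cdkn1a and Rb1. Ccnd2 and Rbl2 were lost (edgeR adjusted p = 0.0554 and 0.0670).

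**Figure D5:**
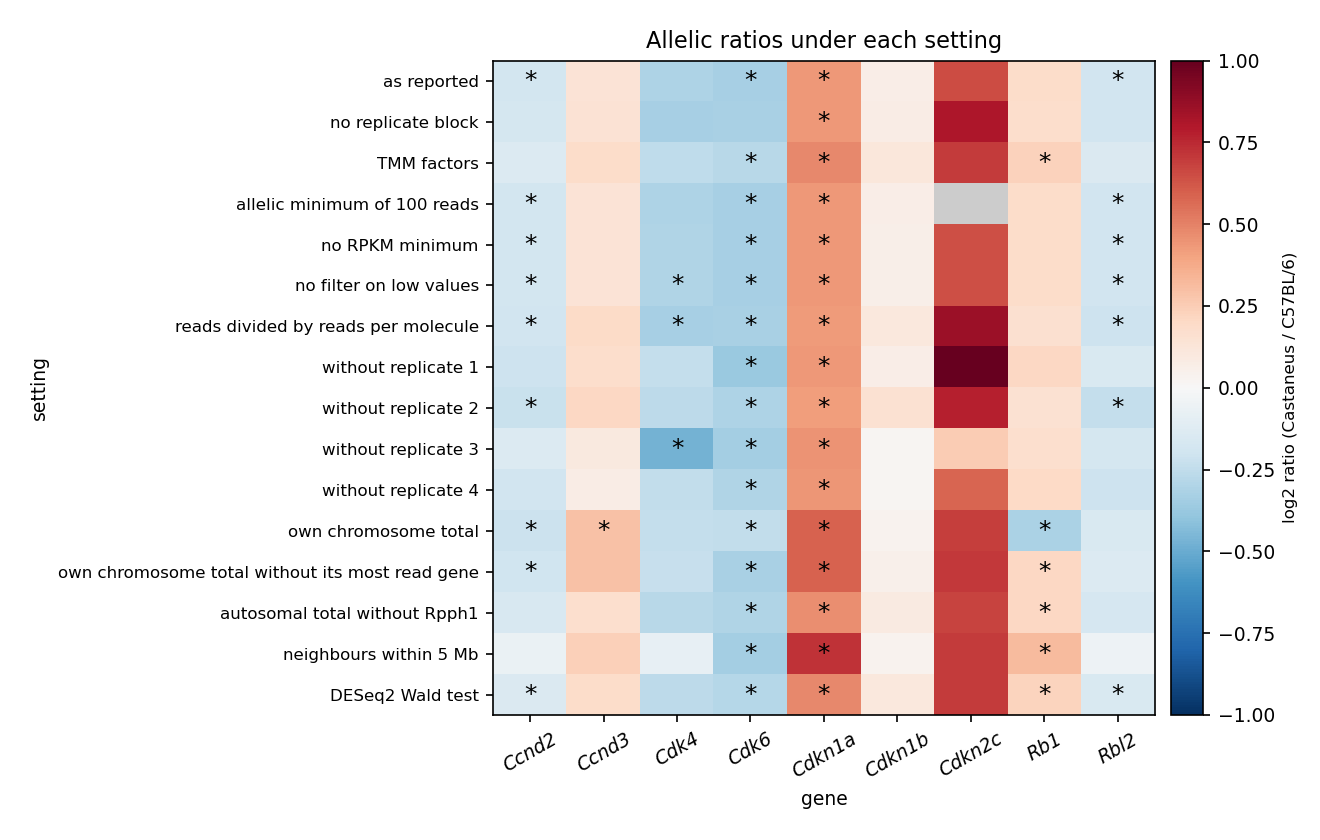
Log2 ratio of Castaneus to C57BL/6 (colour, red for Castaneus higher) for each gene under the reported setting and each of 15 alternatives; stars mark an adjusted p under 0.05 and grey a gene left out by the filter. Cdkn1a is starred in every line, Cdk6 in all except the fit without the replicate block, and Rb1 changes colour, to -0.32, in the line for its own chromosome total.

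Around the gate, 41 genes of the 5 lists were tested and 11 of them, 26.8%, were called, beside 28.1% of all genes; 5 were higher from Castaneus and 6 from C57BL/6. The 6 with the largest ratios were Myc with 34.4% ± 1.90 of its reads from Castaneus, Cdc25a, a phosphatase that activates CDKs, with 36.9% ± 4.87, Pcna with 37.2% ± 0.697 and Ccnh with 37.9% ± 3.72, against Tfdp1, the partner of E2F factors, with 63.9% ± 5.33 and E2f2 with 62.9% ± 6.19 (SD, n = 4). Their log2 ratios ran from -0.91 for Myc to 0.86 for Tfdp1. Each of these shares lay farther from 50% than that of any of the 9 genes that were called. By list, 0 of the 5 tested cyclins and partners were higher from Castaneus and 2 from C57BL/6, with 0 and 0 of 2 inhibitors, 2 and 1 of 12 pocket protein, E2F and DREAM genes, 1 and 2 of 12 turnover genes, and 2 and 1 of 10 targets.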

How the data were processed

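For 49671 genes the authors deposited read counts for each allele and, in a separate column, RPKM values covering both. Per the submitters' processing notes, STAR 2.7.1a, featureCounts (no version) and mm10 were used. The sources used here do not state the rule for allele assignment, the strand setting or any removal of duplicates. Low RPKM values multiplied by GENCODE M21 exon length were whole multiples of 1 step, within 0.02, for 90.6% to 90.8% of values up to 200 reads per replicate, which gave the total reads of 8 of the 9 genes (not Cdkn1a). Allelic counts were clumped: with equal alleles assumed, 11.0, 22.6, 12.6 and 6.79 reads came from each molecule in replicates 1 to 4.

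Genes with a mean of at least 20 allelic reads and 1 RPKM were fitted with edgeR 4.0.16 (glmQLFit, glmQLFTest, R 4.3.3; an allele's library size was its autosomal total), two-sided, with Benjamini-Hochberg adjustment over 10268 genes. The replicate was a block because both alleles come from the same animal; deviations of its 2 alleles correlated with r of 0.0830 to 0.216. The standard error of a log2 ratio was its size over the square root of F. Alternatives included DESeq2 1.42.0 and leaving out replicates. Python 3.11.15, scipy 1.17.1 and pandas 2.3.3 did the rest. The genes and lists were chosen with earlier results of these data known. The named related genes are the 6 largest calls, the 2 highest per list and up to 5 of those under 0.1 RPKM. Mki67, Cdk1, Trp53, Rbl1, Rpph1 and Tspan31 were named outside this rule, after their values were seen. So were the cell type markers Cd3e, Lyz2, Cd68, Eomes, Ncr1 and Klrb1c.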

Additional observations from a re-analysis of the deposited data

Results flagged for a closer look

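The Castaneus share of Cdk4 in replicate 3, 53.1%, was far from the other 3 values of 41.1% to 41.9%, with a gap to the nearest of 0.928 of the whole range. It was the only 1 of 34 sets of 4 values to be so marked, and chance marks about 1 in 20. On reads divided by the estimated reads per molecule, which leaves about 201 of them in replicate 3, the share was 53.2% with an exact 95% interval of 46.1% to 60.3%, which overlaps those of replicates 1, 2 and 4, which reached 46.6%, 51.4% and 46.5%. The part of read copies or of overlapping Tspan31 reads in this value was not tested.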

How the results depend on the processing

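The count of autosomal genes called, 2883, ran from 1960 to 3813 over 12 alternatives and stayed within 1.5 times. Of the 9 genes 4 were called, 1 without the replicate block (Cdkn1a), 2 to 4 when a replicate was left out, and 3 to 5 otherwise. The share called among all genes tested moved as well, from 28.1% as reported to 20.5% without the replicate block. It was 19.1% without replicate 4 and 29.99% without replicate 2, with the other omissions between. Otherwise it ran from 17.5% with no filter, where 5 of the 9 genes were called, to 37.1% with DESeq2, also with 5. Against its own chromosome total the log2 ratio of Rb1 turned to -0.32; the total without Rpph1 did not turn it. The calls of Ccnd2 and Rbl2 were lost under 7 and 9 of 15 alternatives, that of Cdk6 without the replicate block alone (adjusted p = 0.0679), and that of Cdkn1a under none. Ccnd3 was called against its own chromosome total only (adjusted p = 0.0476), and Cdk4 without replicate 3, with no filter and on reads divided by reads per molecule. The minimum of 100 reads left out Cdkn2c. The 6 level ratios kept their direction by geometric means and without any 1 replicate; rescaling a library cannot change them. The coefficients of variation moved more: that of Rb1 was 3.95% as deposited and 7.56% with libraries rescaled to the same RPKM total, where Cdkn1b was lowest at 4.26%. Rescaling every library to the same RPKM total changed all 9 levels, which are then in another unit, and kept their order. Read clumping and the 44 to 136 allelic reads of Cdkn2c limit the precision.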
